A study of Mus musculus with 6 samples.

Results

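The 39 Hox genes of the mouse were examined in cultures of induced renal epithelial cells, as all genes named Hoxa, Hoxb, Hoxc or Hoxd followed by a number only. They make up 39 of the 49671 genes counted in each library, 11 in the HoxA cluster, 10 in HoxB, 9 in HoxC and 9 in HoxD. Induced renal epithelial cells (iRECs) are fibroblasts that kidney transcription factors have turned into tubule-like cells. All cultures came from cells of strain B6.129S4-Pkd1tm2Ggg/J, which carry a floxed allele of Pkd1, the gene of polycystin-1 that is mutated in most polycystic kidney disease. The Cre cultures had been transduced with Cre recombinase and were labelled Pkd1 knockout (Pkd1 -/-). The Flp cultures had been transduced with Flp recombinase and were labelled Pkd1 wild type (Pkd1 fl/fl), so the floxed allele was still present in them. There was 1 Cre and 1 Flp culture of each of the clones 4, 7 and 21, giving 3 libraries per group, all grown to confluence in fibroblast medium. Each clone is a single cell line, and whether they derive from different animals is not stated. P-values therefore measure the spread between these clone pairs, and a ratio within 1 clone has no replicate.

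Hox genes encode homeodomain transcription factors that give cells along the head-to-tail axis and the limbs their position. Within a cluster the genes lie in the order in which they are used: those with low numbers at one end act towards the head, those with high numbers at the other towards the tail. Genes with the same number in different clusters are paralogues, which often stand in for each other. Cultured fibroblasts keep the Hox pattern of the body site they came from, held by Polycomb repression of silent genes and trithorax proteins at active ones. In the kidney, the genes of group 11 together are needed for the metanephric kidney to form, and Hoxb7 is a classical marker of the ureteric bud and collecting duct.

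Total counts per library lay between 25196120 and 46918341, so that a gene without reads could have had up to 0.0632 CPM (counts scaled to library size) at the greatest depth and 0.121 CPM at the lowest, by counting error alone. Pkd1 was at 145, 105 and 118 CPM in Cre cultures of clones 4, 7 and 21, against 199, 229 and 166 CPM in Flp cultures. It was lower in Cre in every clone, with a log2 fold change of -0.69 (SE 0.16, edgeR adjusted p = 0.6065). Counts over the whole gene check the deletion only in part. The renal epithelial label was borne out by its markers, 12 of 12 of which averaged at least 1 CPM. Of 12 fibroblast markers 4 did so, Col1a1, Pdgfrb, Vim and Twist1, while Thy1 was at 0 in all 6 libraries. In these bulk samples, fewer cells expressing a gene and less RNA per cell cannot be told apart.

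Transcripts of the Hox genes came from 2 of the 4 clusters. In HoxA, on chromosome 6 (52155590 to 52260880, GRCm38), 10 of 11 genes averaged at least 1 CPM over the 6 libraries. In HoxB, on chromosome 11 (96194316 to 96368256), 7 of 10 did so. No gene of HoxC, on chromosome 15 (102921103 to 103036852), or HoxD, on chromosome 2 (74668310 to 74765142), reached this level. The 9 HoxC genes together had 6 reads and the 9 HoxD genes 1 read, or 0.0129% of the 54160 Hox reads. The reads fell on Hoxc13, a regulator of hair keratins, with 3 in Cre clone 21 and 1 in Flp clone 7, on Hoxc10, a lumbar patterning gene, with 2 in Cre clone 21, and on Hoxd4, a gene of the neck region, with 1 in Cre clone 4. The other 15 HoxC and HoxD genes had 0 reads in every library, Cre and Flp alike. The other annotated genes inside these spans, 7 in HoxC and 10 in HoxD, with the long noncoding RNAs Hotair and Haglr among them, also had 0 reads.

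**Figure D1:**
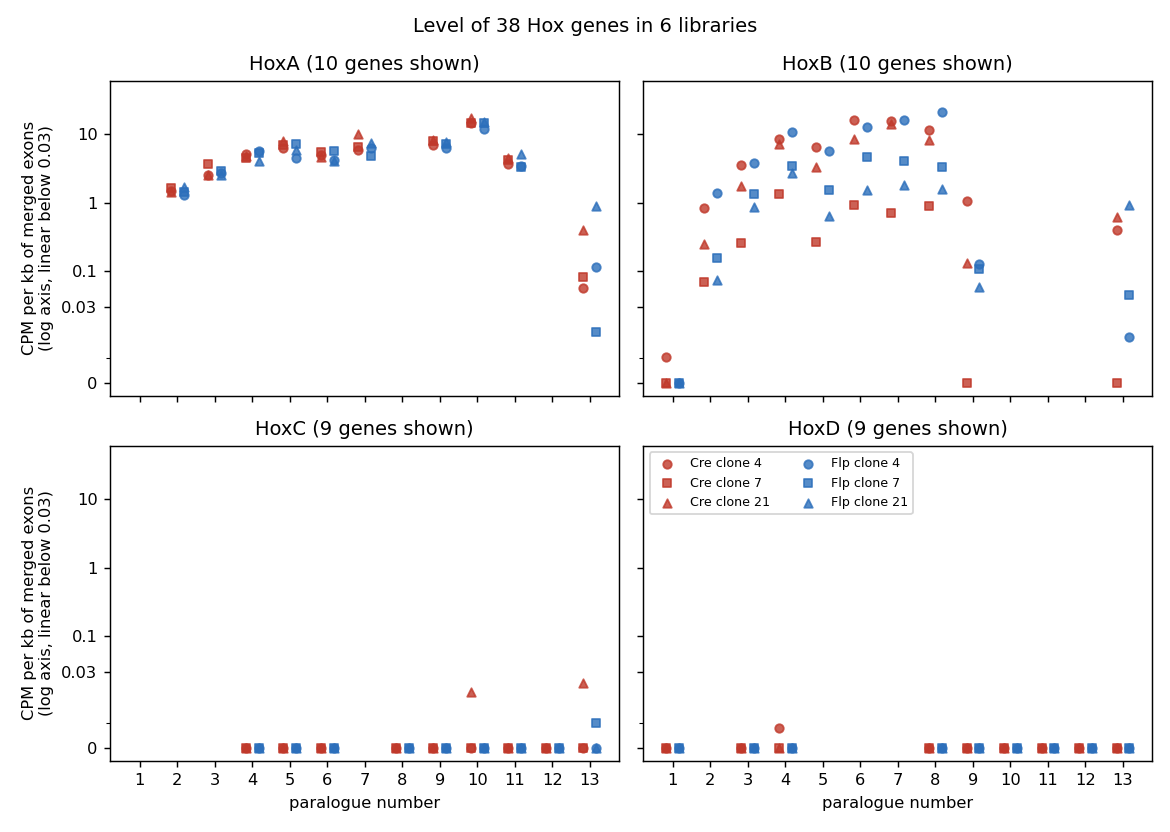
Level of each Hox gene in CPM per kb of merged exons (y, log axis that is linear below 0.03) against its paralogue number (x), with 1 panel per cluster and 1 HoxA gene not shown. Each point is 1 library, Cre in red left of Flp in blue, with the marker shape giving the clone; HoxA points of a gene lie close together except in Hoxa13, HoxB points are spread out, and HoxC and HoxD genes are at or near 0.

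Of the 13 paralogue groups, 11 had a detected member. Groups 2 to 7 had an HoxA and an HoxB gene each, while Hoxa9, Hoxa10 and Hoxa11 were the only detected members of groups 9, 10 and 11, and Hoxb8 of group 8. Group 12, which has members in HoxC and HoxD only, had 0 reads. In group 11 the kidney gene Hoxa11 was at 8.47, 9.53 and 10.3 CPM in Cre cultures of clones 4, 7 and 21, against 7.79, 7.61 and 11.7 CPM in Flp cultures. Exons of Hoxa11 overlap those of the antisense gene Hoxa11os, at 7.11 CPM on average, over 35% of their bases, so its counts are uncertain. The partners of Hoxa11, Hoxc11 and Hoxd11, had no read. Hoxb1, a hindbrain gene, had 1 read in Cre clone 4 and none elsewhere.

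Within HoxA the level was highest near, but not at, the tail end of the cluster. Per kb of merged exons, Hoxa10 was the highest of the 39 genes at 14.7 CPM per kb on average, with libraries between 12.0 and 17. Next were Hoxa9 at 7.45, Hoxa7 at 6.83 and Hoxa5 at 6.49 CPM per kb. Hoxa10 exceeded Hoxa9 in 6 of 6 libraries without overlap of their ranges, but Hoxa7 exceeded Hoxa5 in only 3 of 6, so the order of those neighbours was not separated. Hoxa4 and Hoxa6 were likewise not separated, at 4.95 and 4.86 CPM per kb. Hoxa11 followed at 4.03, Hoxa3 at 2.82 and Hoxa2, which patterns the second pharyngeal arch, at 1.51 CPM per kb. Exons of other genes overlap 35% of the exon bases of Hoxa11, 27.1% of Hoxa3, 20.4% of Hoxa7, 16% of Hoxa4 and 15% of Hoxa2. The levels of these genes are uncertain to that extent. Hoxa13, the last gene of the cluster and needed for the digits and the genital and urinary outlets, stood at 0.262 CPM per kb.

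The HoxA genes had close to the same level in every library. The 11 genes together had 162, 180 and 195 CPM in Cre cultures of clones 4, 7 and 21, against 148, 164 and 176 CPM in Flp cultures. The highest library was 1.32 times the lowest. Within each clone the Cre sum was the higher, by 1.09-fold in clone 4, 1.10-fold in clone 7 and 1.11-fold in clone 21, a mean log2 ratio of 0.14 ± 0.01 (SD, n = 3 clones). Without the members whose exons overlap another gene it was 0.163 ± 0.16, so the close match between clones did not hold without them. No test was made of this sum, since 3 clone pairs cannot reach a p under 0.05 by permutation. Its members were all HoxA genes by name, though the Hox genes had been taken up with results of these data known. The 10 detected genes had highest-to-lowest ratios over libraries of at most 2.13.

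Hoxa10 (ENSMUSG00000000938), which patterns the lumbar region and the uterus, had 47.6, 48.1 and 55.7 CPM in Cre cultures of clones 4, 7 and 21, against 39.3, 48.2 and 49.9 CPM in Flp cultures. Cre and Flp values overlapped, and in clone 7 the cultures were nearly equal. Its fitted log2 fold change of Cre over Flp was 0.14 (SE 0.12, 95% interval -0.15 to 0.44), and edgeR's p was 0.9092 once adjusted by Benjamini-Hochberg over all genes. Hoxa9 (ENSMUSG00000038227), known for driving leukaemia with its cofactor Meis1, had 38.6, 44.8 and 46.7 CPM in Cre cultures, against 35.7, 40.07 and 43.6 CPM in Flp cultures. The Cre culture of Hoxa9 was the higher in each clone, by a fitted log2 fold change of 0.13 (SE 0.11, edgeR adjusted p = 0.9211). Hoxa7 (ENSMUSG00000038236), a trunk gene, had 16.8, 19 and 29.1 CPM in Cre cultures, against 17.9, 13.7 and 21.4 CPM in Flp cultures. Clone 21 was high in both cultures of Hoxa7, and its clone 4 cultures differed little. Its fold change was 0.28 (SE 0.18, edgeR adjusted p = 0.8736). Hoxa5 (ENSMUSG00000038253), needed for lung and neck vertebrae, had 11.9, 13.2 and 15.1 CPM in Cre cultures, against 8.4, 13.5 and 11 CPM in Flp cultures. Clones 4 and 21 were higher in Cre and clone 7 was not. The fold change of Hoxa5 was 0.31 (SE 0.21, edgeR adjusted p = 0.8736), the largest among the 10 HoxA genes tested.

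Over these 10 genes the fitted log2 fold changes ran from -0.07 for Hoxa4 to 0.31 for Hoxa5, with a median of 0.13. The median of all 15355 genes tested was 0.00. Fitted values were above 0 for 9 of the 10, against 7781 of the 15355. Counted pair by pair, Cre exceeded Flp for 7 of the 10 genes (clone 4), 6 (clone 7) and 7 (clone 21). The 10 genes are neighbours in 1 cluster and are no independent replicates of a rise in Cre. The 95% intervals of single genes lay within -0.68 and 0.82, so a change of Cre over Flp of log2 1 was outside the interval of each of them.

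The HoxB genes differed widely between libraries and went opposite ways in 2 of the clones. Together they had 149, 10.8 and 98.0 CPM in Cre cultures of clones 4, 7 and 21, against 170, 43.8 and 24.9 CPM in Flp cultures. The highest library, Flp clone 4, had 15.8 times the level of the lowest, Cre clone 7. In clone 7 the Cre culture was the lower, by 4.07-fold, and in clone 21 it was the higher, by 3.94-fold, while in clone 4 it had 0.880 times the Flp level. The mean log2 ratio over clones was -0.08 ± 2 (SD, n = 3). Without clone 7 it was 0.898 and without clone 21 it was -1.11. The contrast did not depend on scaling between libraries, since HoxB reads made up 48.0%, 5.64% and 33.4% of HoxA and HoxB reads in Cre cultures of clones 4, 7 and 21, against 53.5%, 21.1% and 12.4% in Flp cultures. The exact (Clopper-Pearson) 95% intervals, which cover counting error only, were 5.05% to 6.28% in Cre clone 7 and 20.3% to 22% in Flp clone 7, and 32.7% to 34.2% in Cre clone 21 and 11.5% to 13.3% in Flp clone 21.

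**Figure D2:**
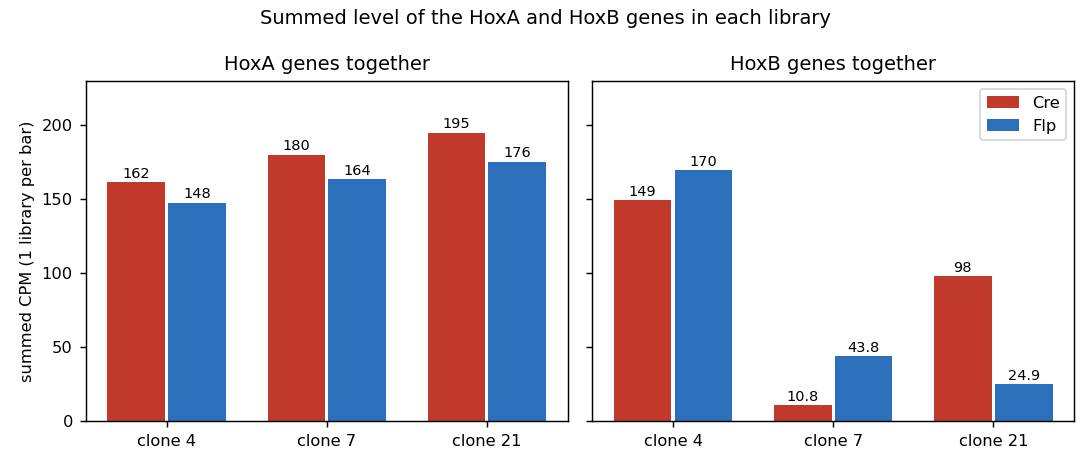
Summed CPM of the 11 HoxA genes (left) and the 10 HoxB genes (right) in each library, Cre in red beside Flp in blue for clones 4, 7 and 21; each bar is 1 library with its value above it. HoxA bars lie between 148 and 195 CPM, and HoxB bars between 10.8 and 170 CPM.

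The genes Hoxb2 to Hoxb9 moved together in clones 7 and 21. In clone 4, Hoxb9 stood apart with a log2 ratio of 2.88, where Hoxb2 to Hoxb8 lay between -0.85 and 0.37. In 8 of 8 genes from Hoxb2 to Hoxb9, Cre clone 7 was the lowest library, Flp clone 21 the second lowest and Flp clone 7 the third lowest. All 8 were lower in Cre in clone 7 and higher in Cre in clone 21. In Hoxb9 the order rested on 0, 4 and 11 reads in Cre clone 7, Flp clone 21 and Flp clone 7. Hoxb2 had 7 reads in both Cre clone 7 and Flp clone 21. Cre and Flp libraries overlapped in each HoxB gene tested, so that 0 of 9 had groups apart, against 8.13% of all genes tested. The genes Hoxb2 to Hoxb9 are neighbours in 1 cluster and are no independent replicates of the pattern. Their median log2 ratio of Cre over Flp was -2.29 in clone 7, 1.94 in clone 21 and -0.05 in clone 4. A ratio of at least log2 1 in size, negative in clone 7 and positive in clone 21, was found for 7 of the 9 HoxB genes tested, Hoxb2 to Hoxb8, and for 0 of 10 HoxA genes. Of all genes tested, 0.716% showed it. The clones and signs of this count were set from the HoxB ratios themselves, so the share is no test of them. Likewise, 8 of 9 HoxB genes had a library at least 10 times above another, against 4.44% of all genes tested. Hoxb9 and Hoxb13 are among the 8 and had no read in Cre clone 7.

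Hoxb8 (ENSMUSG00000056648, chromosome 11, 96281905 to 96285315), known for its part in haematopoietic cells and microglia, had 30.6, 2.33 and 21.6 CPM in Cre cultures of clones 4, 7 and 21, against 55.0, 8.85 and 4.24 CPM in Flp cultures. Both clone 4 cultures stood above all others, the Flp one highest, and the groups overlapped. Its fitted log2 fold change of Cre over Flp was -0.23 (SE 0.83, edgeR adjusted p = 0.9868). Hoxb7 (ENSMUSG00000038721, 96286623 to 96290162), the collecting duct marker, had 24.4, 1.10 and 21.8 CPM in Cre cultures, against 24.6, 6.29 and 2.81 CPM in Flp cultures. The 2 cultures of clone 4 were alike, and those of clone 21 differed by a log2 ratio of 2.93. The fold change of Hoxb7 was 0.17 (SE 1.05, edgeR adjusted p = 0.9901). Hoxb6 (ENSMUSG00000000690), a trunk and limb bud gene, had 32.2, 1.85 and 16.9 CPM in Cre cultures, against 25.0, 9.20 and 3.04 CPM in Flp cultures. The order of its libraries was that of Hoxb7 apart from the 2 cultures of clone 4. Its fold change was 0.24 (SE 0.91, edgeR adjusted p = 0.9869).

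Hoxb4 (ENSMUSG00000038692), which expands blood stem cells when overexpressed, kept more of its level than its neighbours in the low libraries. It had 22, 3.39 and 18.3 CPM in Cre cultures of clones 4, 7 and 21, against 28.1, 8.70 and 6.91 CPM in Flp cultures, and its share of HoxB reads was 31.5% in Cre clone 7 and 27.8% in Flp clone 21, against 14.7% to 19.9% in the other 4 libraries. Its fold change was -0.10 (SE 0.52, edgeR adjusted p = 0.9901). Hoxb3 (ENSMUSG00000048763), a gene of the hindbrain and pharyngeal arches, had 15, 1.10 and 7.56 CPM in Cre cultures, against 16, 5.64 and 3.64 CPM in Flp cultures. Its fold change was -0.38 (SE 0.65, edgeR adjusted p = 0.968). Hoxb2 (ENSMUSG00000075588), another hindbrain gene, had 2.93, 0.240 and 0.885 CPM in Cre cultures, against 4.76, 0.547 and 0.263 CPM in Flp cultures. Hoxb2 was thus above 1 CPM in clone 4 only. Its fold change was -0.12 (SE 0.63, edgeR adjusted p = 0.9901). Hoxb5, which acts in the enteric neural crest, had 18.5, 0.754 and 9.21 CPM in Cre cultures, against 15.8, 4.23 and 1.80 CPM in Flp cultures. Exons of Hoxb2 and Hoxb3 overlap those of the antisense gene Hoxb3os over 27.3% and 52.9% of their bases, so their counts are uncertain, while those of Hoxb4, Hoxb6, Hoxb7 and Hoxb8 overlap no other gene.

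**Figure D3:**
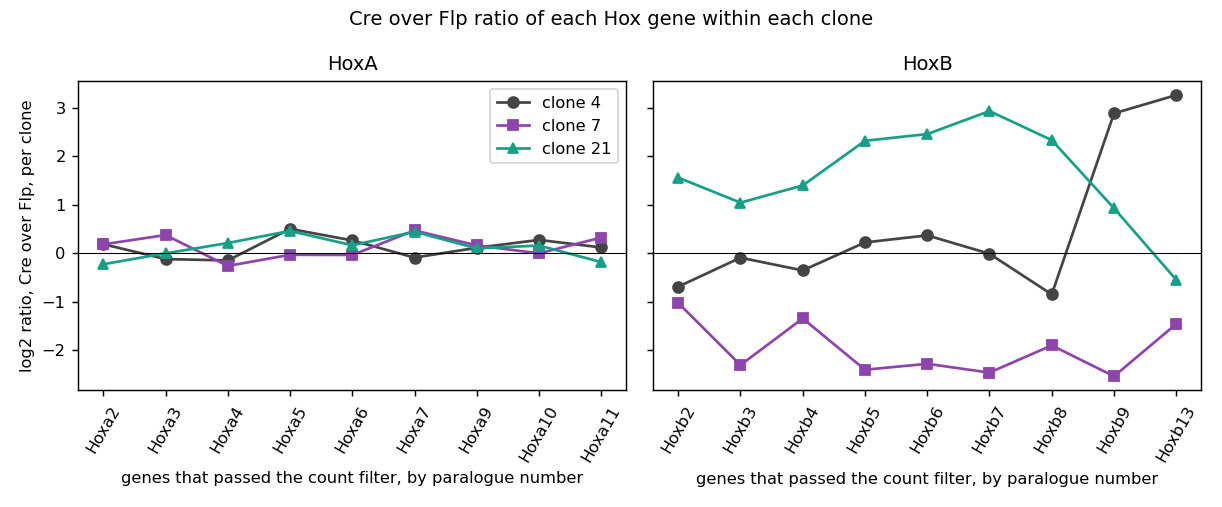
Log2 ratio of Cre over Flp within each clone (y) for 9 HoxA and 9 HoxB genes that passed the count filter (x, by paralogue number); each point compares 1 Cre with 1 Flp culture of a clone. HoxA ratios lie between -0.26 and 0.50, while Hoxb2 to Hoxb8 lie at 1.04 or above in clone 21 and at -1.02 or below in clone 7.

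At the tail end of HoxB the pattern changed. Hoxb9 (ENSMUSG00000020875), a gene of the rib cage and mammary gland, had 2.74, 0 and 0.337 CPM in Cre cultures of clones 4, 7 and 21, against 0.323, 0.273 and 0.150 CPM in Flp cultures. It reached 1 CPM in Cre clone 4 alone, with 116 reads there and 8 in Flp clone 4. Its fold change was 0.96 (SE 1.26, edgeR adjusted p = 0.9507). Hoxb13 (ENSMUSG00000049604), a prostate and tail gene 74.0 kb beyond Hoxb9, had 0.875, 0 and 1.37 CPM in Cre cultures, against 0.0404, 0.0994 and 2.03 CPM in Flp cultures. Its highest libraries were both of clone 21, and Cre clone 4 was above Flp clone 4 with 37 reads against 1. The fold change of Hoxb13 was 0.42 (SE 1.15, edgeR adjusted p = 0.984). Hoxa13, its paralogue on chromosome 6, was also highest in clone 21, with 0.142, 0.206 and 0.990 CPM in Cre cultures of clones 4, 7 and 21, against 0.283, 0.0497 and 2.21 CPM in Flp cultures. Hoxa13 did not pass the count filter. In a fit with a filter by the full design, chosen after its values were seen, its level in clone 21 was above that in clone 4 by log2 2.90 and above that in clone 7 by log2 3.58, with an edgeR adjusted p of 0.456 for the clone term.

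The genes around HoxB were examined for the opposite ratios of clones 7 and 21, after those ratios had been seen. Of 37 tested genes outside the cluster and within 1000 kb of it, 0 had a log2 ratio of -1 or below in clone 7 together with 1 or above in clone 21, where 0.716% of all genes tested did. The median log2 ratio of these 37 genes was 0.08 in clone 7 and 0.00 in clone 21. The nearest of them, Atp5g1, 119 kb beyond Hoxb13, had -0.24 in clone 7 and 0.50 in clone 21, and Snx11, the nearest on the other side at 399 kb, had -0.38 and -0.05. Over the 1250 tested genes of chromosome 11 the medians were 0.03 and 0.00, and 14 genes had the opposite ratios, among them the 7 HoxB genes and 3 antisense transcripts of the cluster. On chromosome 6, which holds HoxA, 8 of 814 tested genes had them, none of them a HoxA gene. Inside the cluster, 3 of the 5 other transcripts tested went the way of the Hox genes: the antisense transcripts Hoxb5os, at -2.10 in clone 7 and 2.61 in clone 21, and Hoxb3os, at -2.92 and 1.59, and Gm11536, at -1.86 and 1.47. The 2 others, Gm11539 and Gm27605, lie between Hoxb13 and Hoxb9. Hoxb3os shares exon bases with Hoxb2 and Hoxb3, and Hoxb5os with Hoxb5, so their counts may not be separate from those genes. Hoxb5os, Hoxb3os and Gm11536 were at 0.24, 0 and 0.137 CPM in Cre clone 7 and at 0.263, 0.263 and 0.375 CPM in Flp clone 21. Their ratios thus rested on few reads. All 9 other genes of the HoxB span summed to 10.6, 0.926 and 6.15 CPM in Cre cultures of clones 4, 7 and 21, against 7.27, 3.56 and 2.33 CPM in Flp cultures. Those of the HoxA span summed to between 24.3 and 25.4 CPM in Cre cultures and between 19.1 and 26 CPM in Flp cultures.

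**Figure D4:**
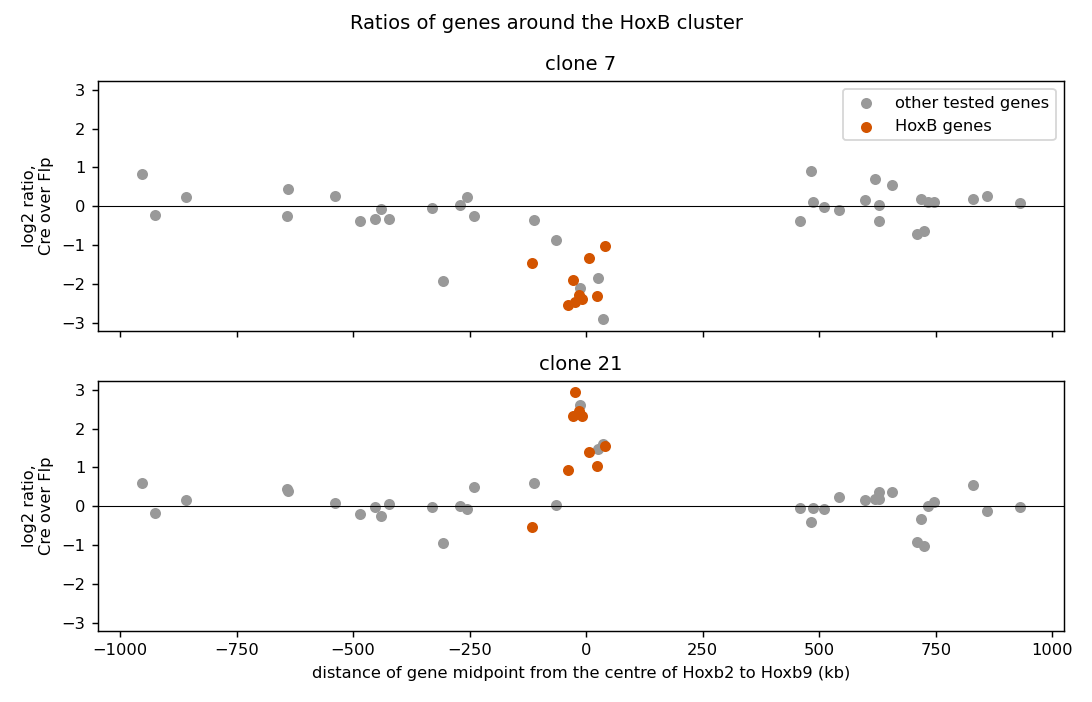
Log2 ratio of Cre over Flp (y) in clone 7 (top) and clone 21 (bottom) against the distance of each tested gene's midpoint from the centre of Hoxb2 to Hoxb9 in kb (x), with HoxB genes in orange and other genes in grey. The HoxB genes lie below 0 in clone 7, all but Hoxb13 lie above 0 in clone 21, and most genes farther out lie near 0 in both.

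The start regions of genes from each class are shown so that the swinging, steady and silent genes can be compared. They are RefSeq promoter windows of the build GRCm38.p6, from 250 bases before to 50 bases after a gene start, 5′ to 3′ on the gene's strand, with CG dinucleotides in capitals. Hoxb4 and Hoxb8 swung between libraries, Hoxa10 (its upstream start) was steady, and Hoxc4 and Hoxd4 are the silent paralogues of Hoxb4.

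Hoxb4, chr11:96318017-96318316, plus strand: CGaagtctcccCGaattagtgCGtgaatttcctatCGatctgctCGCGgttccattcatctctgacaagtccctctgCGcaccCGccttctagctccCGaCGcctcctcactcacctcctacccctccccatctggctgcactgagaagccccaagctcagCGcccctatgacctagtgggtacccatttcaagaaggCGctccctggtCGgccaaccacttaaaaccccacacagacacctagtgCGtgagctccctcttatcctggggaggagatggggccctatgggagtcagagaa

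Hoxb8, chr11:96281655-96281954, plus strand: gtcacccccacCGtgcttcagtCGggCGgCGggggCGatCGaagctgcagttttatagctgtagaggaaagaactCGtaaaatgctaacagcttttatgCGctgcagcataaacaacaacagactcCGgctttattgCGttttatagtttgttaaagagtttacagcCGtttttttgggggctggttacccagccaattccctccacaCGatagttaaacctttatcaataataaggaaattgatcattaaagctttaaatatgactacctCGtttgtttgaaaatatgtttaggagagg

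Hoxa10, chr6:52240805-52241104, minus strand: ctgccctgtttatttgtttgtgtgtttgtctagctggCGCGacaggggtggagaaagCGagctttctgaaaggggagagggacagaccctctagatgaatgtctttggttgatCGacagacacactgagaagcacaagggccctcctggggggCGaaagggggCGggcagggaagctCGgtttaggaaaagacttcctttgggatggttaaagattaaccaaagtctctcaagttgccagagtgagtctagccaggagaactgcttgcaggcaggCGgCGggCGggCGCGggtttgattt

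Hoxc4, chr15:103034145-103034444, plus strand: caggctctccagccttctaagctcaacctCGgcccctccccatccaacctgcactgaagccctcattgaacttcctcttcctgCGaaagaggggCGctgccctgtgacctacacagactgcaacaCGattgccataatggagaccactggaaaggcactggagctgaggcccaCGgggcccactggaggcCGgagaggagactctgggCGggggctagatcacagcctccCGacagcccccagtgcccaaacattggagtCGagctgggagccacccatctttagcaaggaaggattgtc

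Hoxd4, chr2:74721728-74722027, plus strand: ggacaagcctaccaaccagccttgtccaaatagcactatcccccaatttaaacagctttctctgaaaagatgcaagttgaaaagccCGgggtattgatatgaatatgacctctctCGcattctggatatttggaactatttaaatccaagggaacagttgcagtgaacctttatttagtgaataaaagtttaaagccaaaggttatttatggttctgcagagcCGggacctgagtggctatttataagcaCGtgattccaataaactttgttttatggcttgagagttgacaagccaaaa

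These windows held 14 CG dinucleotides in Hoxb4, 13 in Hoxb8, 12 in Hoxa10, 9 in Hoxc4 and 4 in Hoxd4. The window at the other start of Hoxa10 held 21, and counts per gene do not tell which start its RNA came from. Of all 32851 promoter windows, 36.3% had at least as many as Hoxb4 and 68.6% at least as many as Hoxd4, and the median was 7. The 24 windows found for 22 Hox genes had a median of 14.5, with a median of 17.5 in the 10 windows of HoxA and 20.0 in the 10 of the silent HoxD. The HoxA windows include that of Hoxa13, which was not detected and had the most, at 45. The paired Hox and Pbx motif TGATNNAT, searched on both strands, was in 4 of the 24 Hox windows, those of Hoxa2, Hoxb1, Hoxb8 and 1 of the 2 of Hoxd11, and in 8.85% of all windows.

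The test of Cre over Flp with clone as a block called 0 of the 19 Hox genes that passed the count filter, and 0% of all 15355 genes tested, at an edgeR adjusted p under 0.05. At an unadjusted p under 0.05 it counted 0 of the 19 Hox genes and 6.82% of all genes. DESeq2 with the same block called 0 of the 19 and 1.27% of all genes, and limma-voom with the block called 0 Hox genes and 0 of all genes. The 20 Hox genes that did not pass the filter were the 18 of HoxC and HoxD, Hoxa13 and Hoxb1. The filter asked for enough reads in 3 libraries. The precision differed between the clusters. The SE of the log2 fold change was 0.11 to 0.29 in HoxA and 0.52 to 1.26 in HoxB. The 95% interval of Hoxb7, for example, ran from -2.42 to 2.76, which leaves room for large changes either way.

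The second comparison asked whether the clones differed from each other, with Cre or Flp as the other term of the fit. Of the 19 Hox genes, 0 passed an edgeR adjusted p of 0.05 for the clone term, as did 0.00651% of all genes tested. At an unadjusted p under 0.05 the clone term counted 4 of the 19, Hoxb2, Hoxb4, Hoxb8 and Hoxb13, and 8% of all genes. In the fit, the log2 fold change of clone 7 over clone 4 was -3.25 in Hoxb2, -2.31 in Hoxb3, -2.06 in Hoxb4 and -2.95 in Hoxb8. Both clone 4 cultures were above both clone 7 cultures in 8 of 8 genes from Hoxb2 to Hoxb9. The 2 cultures of clone 21 stood on either side of the Flp culture of clone 7 in all 8, its Cre culture above and its Flp culture below. In Hoxb9 these orders rested in part on few reads. In Hoxb13 clone 21 was above clone 7 by log2 4.82. The calls depended on the fit: DESeq2 called Hoxb2 (adjusted p = 0.00805) and Hoxb4 (0.0432), with 2.70% of all genes, and edgeR, once genes of low count were kept in, called 8 genes, Hoxa13, Hoxb2, Hoxb3, Hoxb4, Hoxb5, Hoxb6, Hoxb8 and Hoxb13 (edgeR adjusted p from 0.00209 to 0.0485), among 519 genes called in all. Over all fits the adjusted p of the clone term ranged from 0.00209 to 0.9153 in Hoxb2 and from 0.0146 to 0.7603 in Hoxb4 by edgeR, limma or DESeq2, and it did not fall below 0.4578 in any of the 10 HoxA genes tested.

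The swing of HoxB changed which paralogue was the more abundant. Per kb, Hoxb7 was at 0.108 times the level of Hoxa7 in the library where it was lowest against it and at 2.71 times where it was highest. For Hoxb6 against Hoxa6 the range was 0.172 to 3.24 times, for Hoxb4 against Hoxa4 0.294 to 1.90 times and for Hoxb5 against Hoxa5 0.0385 to 1.27 times. In groups 4, 6 and 7 the HoxA gene was the higher in 3 of 6 libraries. In group 9 Hoxa9 exceeded Hoxb9 in 6 of 6, and the ratio of Hoxb9 to Hoxa9 stayed at or below 0.154.

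Partners and regulators of Hox proteins were examined next, in lists chosen with results of these data known. The TALE homeodomain proteins of the Pbx, Meis and Pknox families bind DNA together with Hox proteins. Of their 9 genes, 8 were tested and 0 were called in either test, with a median log2 fold change of 0.16. Meis2 had the smallest p in both, with a mean of 43.3 ± 6.08 CPM in Cre cultures and of 38.1 ± 4.49 CPM in Flp cultures (SD, n = 3 each) and a fold change on the log2 scale of 0.18 (SE 0.11, edgeR adjusted p = 0.8671). The 19 Polycomb genes, which keep silent Hox genes repressed, were all tested, with 0 called and a median of 0.04. Bmi1, of the Polycomb complex that ubiquitinates histones, had the smallest p in both tests, with 62.6, 73.6 and 96.8 CPM in Cre cultures of clones 4, 7 and 21, against 51.2, 67.1 and 83.2 CPM in Flp cultures. Its edgeR adjusted p was 0.7906 for Cre over Flp and 0.4184 for the clone term. Cbx7, a chromodomain subunit of the same complex that was chosen after its values were seen, had 0.662, 7.96 and 0.569 CPM in Cre cultures of clones 4, 7 and 21, against 0.525, 2.98 and 11.4 CPM in Flp cultures. It was high in Flp clone 21, Cre clone 7 and Flp clone 7, the libraries in which Hoxb2 to Hoxb9 were lowest, with a log2 ratio of 1.40 in clone 7 and -4.20 in clone 21. Its edgeR adjusted p was 0.9753 for Cre over Flp and 0.7382 for the clone term, and its part in the HoxB levels was not tested.

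The 10 trithorax and other activating genes had a median of 0.02 and 0 calls, with the smallest p at Ash2l, at 0.14 (SE 0.11, edgeR adjusted p = 0.9012), and, for the clone term, at Dot1l (edgeR adjusted p = 0.7586). Of 13 upstream regulators, which include Cdx, Krox20 (Egr2) and retinoic acid genes, 8 were tested and 0 were called. Egr2 had the smallest p, with 1.70, 6.51 and 3.71 CPM in Cre cultures of clones 4, 7 and 21, against 1.01, 1.99 and 1.43 CPM in Flp cultures, and was higher in Cre in every clone at an edgeR adjusted p of 0.6192. Cyp26b1, which degrades retinoic acid and was chosen after its values were seen, had 1.99, 2.33 and 6.26 CPM in Cre cultures, against 2.95, 66.4 and 3.6 CPM in Flp cultures, with Flp clone 7 far above the rest (edgeR adjusted p = 0.9122). Of 20 other positional transcription factors only 5 passed the filter, 0 were called, and the limb genes Tbx4 and Tbx5 had 0 reads in every library. Pitx1, a hindlimb gene, had the smallest p, with 13.1, 17 and 3.46 CPM in Cre cultures, against 18.2, 14.1 and 9.12 CPM in Flp cultures (edgeR adjusted p = 0.8736).

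Of 13 kidney regulators that work with Hox proteins, 8 were tested, 0 were called and the median log2 fold change was -0.07. Gdnf, the growth factor that Hox group 11 proteins switch on in the embryonic kidney, had the smallest p of Cre over Flp, with 7.40, 0.0686 and 1.09 CPM in Cre cultures of clones 4, 7 and 21, against 6.14, 14.2 and 10.6 CPM in Flp cultures. It was lower in Cre in clones 7 and 21 and not in clone 4 (edgeR adjusted p = 0.784). Pax2, a partner of these proteins at target genes, had the smallest p of the clone term (edgeR adjusted p = 0.6503). Of 13 neighbours of the clusters, 7 were tested and 0 were called, with a median of -0.04. Lnpk, near one end of HoxD, had the smallest p of Cre over Flp, at -0.24 (SE 0.14, edgeR adjusted p = 0.8524), and Mtx2, on the other side of HoxD, that of the clone term (edgeR adjusted p = 0.8229). Lnpk averaged 31.2 and Mtx2 27.8 CPM over all libraries, while Evx2, the homeobox gene directly beside HoxD, was at 0.00414 CPM with reads in Flp clone 7 alone.

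Levels of cell type markers were set beside the HoxB swing. The 12 fibroblast markers summed to 237, 158 and 307 CPM in Cre cultures of clones 4, 7 and 21, against 338, 276 and 238 CPM in Flp cultures. Vim made up most of this, with a mean of 225 CPM. The lowest sum was in Cre clone 7 and the highest in Flp clone 4, as for HoxB, but Flp clone 21 and Cre clone 4 were close in it, where their HoxB levels lay far apart. The 12 renal epithelial markers summed to 9391, 9444 and 7714 CPM in Cre cultures, against 9388, 9895 and 8641 CPM in Flp cultures. Endothelial markers summed to at most 1.84 CPM and muscle markers to at most 1.70 CPM. Haematopoietic markers summed to between 195 and 302 CPM in Cre cultures and between 119 and 205 CPM in Flp cultures, nearly all of it Csf1r at a mean of 199 CPM, with Ptprc and Adgre1 below 1 CPM on average. Neural markers summed to between 713 and 807 CPM in Cre cultures and between 356 and 745 CPM in Flp cultures, nearly all of it Nes at a mean of 662 CPM, with Sox2, Tubb3, Map2 and Sox10 below 1 CPM. Pluripotency markers summed to at most 5.11 CPM. The part of these cells in the HoxB levels was not tested.

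All 39 Hox genes are listed in the authors' deposited table, 15 of them at a mean of 0, and 19 have an adjusted p there. None of the 19 in the authors' deposited table is below an adjusted p of 0.05, the smallest being 0.8875 by DESeq2 for Hoxb2, at a log2 fold change of -0.30. For Hoxb2 the authors' deposited table has a mean normalised count of 322.7 and for Hoxb3 875.9, where the count files average 53.3 and 291 reads per library. Other Hox genes also differed, such as Hoxa7 with 436.4 against 701 and Hoxb6 with 366 against 548. Hoxa10 was closer, with 1593 against 1720. Normalised means and raw reads are unlike measures, but the levels of Hoxb2, Hoxb3 and some other Hox genes depend on the source.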

How the data were processed

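Total RNA of 6 cultures was sequenced, 3 Cre and 3 Flp. For each library the authors deposited whole-number counts by Ensembl gene. The tools named per the submitters' processing notes are STAR 2.5.2b-2, Trim Galore 0.4.3.0, featureCounts 1.6.0.3, DESeq2 2.11.40.1 and FastQC 0.67, and the builds mm10 and GRCm38. Strand handling and gene annotation release were not given in the sources, so sense and antisense reads may be mixed where exons overlap. The authors' deposited table also holds a mean normalised count (a signal), log2 fold changes, their standard errors and Wald statistics (scores) and p-values. Its direction is not stated and was read as Cre over Flp, since 95.6% of 12825 genes had the sign found here.

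Counts were used as deposited. Genes were placed by GENCODE M21 (GRCm38). Genes were filtered with filterByExpr by group, leaving 15355, scaled by TMM and tested with the quasi-likelihood test of edgeR 4.0.16 (R 4.3.3) with terms for clone and for Cre or Flp, on 2 residual degrees of freedom before moderation. P-values were adjusted by Benjamini-Hochberg over all genes tested, with a threshold of 0.05. The script was tested on simulated data. CPM use TMM-scaled totals, ratios within a clone a prior count of 2, and a gene was called detected at a mean of 1 CPM. DESeq2 1.42.0 and limma 3.58.1 (voom) served as alternatives. The Cre and Flp cultures of a clone are the same line, and their deviations from their group's mean had correlations of 0.202, 0.115 and 0.304 in clones 4, 7 and 21, so they were treated as pairs. No 2 libraries agreed within sampling noise.

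The Hox genes described in full were the 3 highest per kb in each cluster, the 5 with the smallest p in each test and any called gene, and other lists are named by their smallest p, with exceptions stated. Members and lists were chosen with earlier results of these data known. Figures were drawn with matplotlib 3.10.9. The values of 1 HoxA gene are not reported here, though it is counted in sums and totals.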

Additional observations from a re-analysis of the deposited data

Results flagged for a closer look

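For 7 genes, Hoxb2 to Hoxb8, the log2 ratio of Cre over Flp was at least 1 in size in clones 7 and 21 and had opposite signs. The difference between the ratio in clone 21 and that in clone 7 was 2.58 in Hoxb2, 3.35 in Hoxb3, 2.74 in Hoxb4, 4.72 in Hoxb5, 4.73 in Hoxb6, 5.39 in Hoxb7 and 4.23 in Hoxb8, all on the log2 scale. These differences were not tested, because each clone has 1 Cre and 1 Flp culture. The genes are neighbours and count as 1 pattern.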

How the results depend on the processing

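The count of Hox genes called for Cre over Flp was 0 in the fit with the clone block, 0 with no replicate block, and 0 in every other alternative run, while the count over all genes was 0 by edgeR, 195 by DESeq2 with the block, 13 by DESeq2 without it and 224 by edgeR with no filter on low counts. The clone term called 0 Hox genes and 1 of all genes, 2 and 414 by DESeq2 with the clone block, and 8 and 519 with no filter on low counts, and the cause was not tested. The mean log2 ratio of the HoxA sum was 0.14, and became 0.16 with library totals only, 0.117 as a mean of log2(CPM + 1) and 0.163 without members that overlap another gene, where its SD over clones was 0.16 against 0.0114. Over 12 genes, 139 of 151 alternative log2 fold changes kept their direction and side of the threshold and 12 reversed. Hoxb4 turned to 0.00465 with no replicate block and 0.0017 by limma-voom. Leaving out 1 clone at a time gave -1.16 to 1.40 in Hoxb7, -1.35 to 0.679 in Hoxb8, -0.897 to 1.37 in Hoxb6, -0.896 to 0.317 in Hoxb2, -0.96 to 0.924 in Hoxb13, -0.842 to 0.509 in Hoxb4 and -1.15 to 0.465 in Hoxb3. Without a change of direction it gave 0.724 to 2.32 in Hoxb9, 0.181 to 0.457 in Hoxa7, 0.0779 to 0.218 in Hoxa10, 0.214 to 0.486 in Hoxa5 and 0.109 to 0.134 in Hoxa9, and it gave -1.11 to 0.898 for the HoxB sum. Such fits rest on 1 residual degree of freedom. Depth limits the 15 HoxC and HoxD genes without reads to below about 0.121 CPM, and differences under that level were not detectable. This limit does not cover Hoxc10, Hoxc13 and Hoxd4, which had reads.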
